A study of Mus musculus with 6 samples.

Results

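The DNA replication licensing and fork genes are 53 genes whose products mark and license origins, unwind DNA, copy both strands, supply nucleotides or switch the whole programme on. They were taken by gene symbol from a table of 16000 genes, which listed all 53, and every one was among the 11972 genes that passed the filter on low counts. Messenger RNA was sequenced from NIH3T3, a mouse fibroblast cell line of embryonic origin, in 3 libraries labelled Rai16 KO and 3 libraries labelled WT, all under serum starvation. The question the labels pose is how starved cells differ with and without the gene. Both groups share the cell line and the starvation. The sources used here do not give the length of starvation, the lesion or the number of knockout clones and cultures. The p-values therefore measure spread among 6 libraries that may be technical repeats, and an effect of the knockout and a difference between clones cannot be told apart.

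The 6 libraries held 16741607 to 18368760 counts. The targeted gene, listed as Fam160b2, is another name of Rai16, and its transcript did not check the labels. It lay at 22.2, 21.5 and 22.0 CPM (counts scaled to a common library size) in the libraries labelled KO, against 25.4, 22.5 and 23.6 CPM in WT. The difference did not pass (edgeR quasi-likelihood test, adjusted p = 0.184), and a count over the whole gene does not check a small lesion. The groups are therefore called by their labels throughout. All 12 fibroblast markers were detected, with a summed level of 21170 to 24048 CPM in libraries labelled KO and 25744 to 26242 CPM in WT. The most abundant, Fn1, averaged 9220 CPM in KO libraries and 13923 CPM in WT. The list did not move together: 5 of the 12 were called higher (41.7%, background 30.5%) and 4 lower (33.3%, background 29.2%). Their median log2 fold change was 0.13. The epithelial, leukocyte, endothelial and neural marker lists each summed to at most 14.7 CPM in any library. Most of their genes lay under 1 CPM throughout, but the sum of each list separated the groups. The epithelial list summed to 4.68 to 6.0 CPM in KO libraries and 2.03 to 2.52 CPM in WT, and the endothelial list to 4.63 to 7.1 CPM in KO libraries and 2.29 to 2.93 CPM in WT. The leukocyte list summed to 4.83 to 5.61 CPM in KO libraries and 3.8 to 3.95 CPM in WT. The neural list, of which only 3 of 6 genes were present, was lower, at 1.43 to 2.5 CPM in KO libraries and 12.0 to 14.7 CPM in WT. In the neural, epithelial and leukocyte lists a single gene made up most of the difference. Map2 averaged 1.91 CPM in KO libraries and 13.1 CPM in WT, and Krt8 4.36 and 1.04 CPM. Cd68 averaged 4.97 CPM in KO libraries and 3.45 CPM in WT. The part of these markers in the results was not tested. KO replicate 2 stood apart from KO replicates 1 and 3, with a chi-square per degree of freedom of 29.6 and 27.5 against them, where KO replicates 1 and 3 differed by 1.72. It also held skeletal muscle transcripts, with 1071 counts of the actin gene Acta1 and 405 counts of the creatine kinase gene Ckm, against at most 8 and 0 in every other library. These 2 genes were chosen after their values were seen.

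Before DNA is copied, the origin recognition complex, CDC6 and CDT1 load the ring-shaped MCM2-7 helicase onto origins in G1, a step called licensing. In S phase the kinases CDK2 and CDC7 and the factors CDC45, GINS and MCM10 turn that ring into an active helicase, and polymerases, the PCNA clamp and its RFC loader follow it. E2F transcription factors drive most of these genes, and in fibroblasts without serum, which leave the cell cycle, their transcripts are typically low. In RNA from a whole culture, more cells in S phase and more transcript per cell cannot be told apart.

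Most of the 53 genes were higher in the libraries labelled KO. By edgeR's quasi-likelihood test with Benjamini-Hochberg adjustment over all genes, at an adjusted p under 0.05, 35 rose and 4 fell, while 14 did not pass. Over all genes tested 30.5% were called higher and 29.2% lower, 59.6% in all, against 66.0% and 7.55% of the replication genes. The median log2 fold change of KO over WT was 0.37 for the 53 genes and 0.00 for all genes tested. Changes were mostly under 2-fold. The 5 genes that rose at least 2-fold were Gins2, Rrm2, Tk1, Fen1 and Mcm2, which is 9.43% of the 53 where the background is 4.32%. None fell by as much, where the background is 6.53%. In CPM all 3 libraries labelled KO lay above all 3 WT libraries for 36 genes and below them for 5, where 34.1% and 33.5% of all genes do so. Without KO replicate 2 the counts were 35 higher and 7 lower, and no fold change moved by more than 0.17 on the log2 scale. Adjusted p-values could be far smaller in that fit, for example 2.23e-32 for Mcm2, against 2e-06 with all libraries (edgeR). The share of all genes called in that fit is not given here, so its counts have no background beside them.

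**Figure D1:**
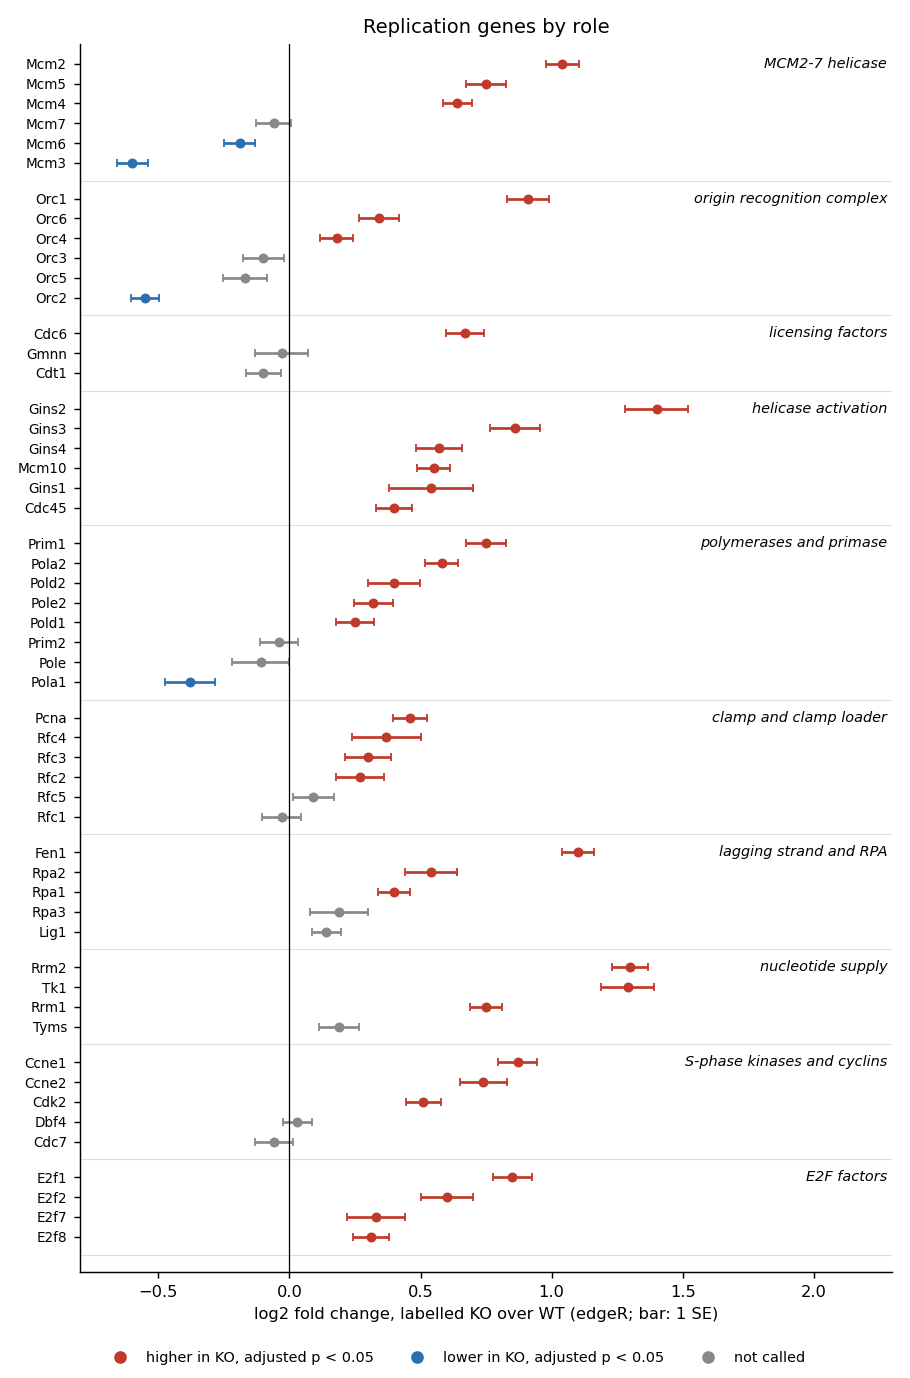
Log2 fold change of labelled KO over WT for the 53 replication genes, grouped by role and ordered within each role (points, edgeR estimate; bars, 1 SE; 3 libraries per group). Red marks the 35 genes called higher, blue the 4 called lower and grey the 14 not called. The helicase loading complexes hold genes on both sides of 0. The 6 genes of helicase activation and the 4 E2F genes plotted are on the right. E2f3 and Mtbp, which are not plotted, fell by 0.35 and 1.03.

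The 6 subunits of the MCM2-7 ring, which act together as 1 helicase, did not move together. Mcm2, Mcm4 and Mcm5 rose, Mcm3 and Mcm6 fell, and Mcm7 did not pass. Mcm2 had 154, 146 and 159 CPM in libraries labelled KO, against 73.4, 72.1 and 78.3 CPM in WT, which is 1.04 ± 0.063 (SE) as a log2 fold change (edgeR, adjusted p = 2e-06). Mcm4 had 185, 177 and 189 CPM in KO libraries and 117, 116 and 121 CPM in WT (0.64 ± 0.056; adjusted p = 1.79e-05). Mcm5 had 120.2, 126 and 125 CPM in KO libraries and 75.4, 65.3 and 79.5 CPM in WT (0.75 ± 0.077; adjusted p = 4.44e-05). For these 3 subunits the lowest KO library lay above the highest WT library. Mcm3 went the other way, with 106, 114 and 108 CPM in KO libraries and 171, 160.0 and 168 CPM in WT (−0.60 ± 0.059; adjusted p = 3.25e-05). Mcm6 had 137, 145 and 142 CPM in KO libraries and 168, 153 and 165 CPM in WT (−0.19 ± 0.060; adjusted p = 0.0203). The groups did not overlap for either gene, but the gap of Mcm6 was small and its call was lost without KO replicate 1 or 3, without WT replicate 1 or 3, and with replicate number as a block (adjusted p up to 0.0909 with 1 library left out). Mcm7 overlapped between groups, with 132, 147 and 136 CPM in KO libraries and 154, 137 and 142 CPM in WT (−0.06 ± 0.067; adjusted p = 0.473). Without KO replicate 2 it was called lower, at −0.10 (adjusted p = 0.019).

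Because the subunits form 1 ring, their levels can be set against each other within each library, on the length-corrected FPKM scale. Shares and ratios within a library do not depend on scaling between libraries, while the sum does. Summed over the 6 subunits, FPKM was 249.6 ± 4.27 in KO libraries and 217 ± 8.73 in WT (SD, n = 3 each; exact permutation p = 0.1, two-sided, the smallest that 3 against 3 allows). The share of Mcm2 in that sum was 18.8%, 17.2% and 18.7% in KO libraries and 9.73%, 10.3% and 10.5% in WT. The share of Mcm3 was 14.3%, 15% and 14.2% in KO libraries, against 25.1%, 25.4% and 24.9% in WT. Mcm3 had the largest share in all 3 WT libraries. Mcm4 had the largest in KO replicates 1 and 3, and Mcm7 in KO replicate 2 (20.3%, against 19.7% for Mcm4). The ratio of Mcm2 to Mcm3 averaged 1.26 ± 0.098 in KO libraries and 0.404 ± 0.0165 in WT, with no overlap (exact permutation p = 0.1). Shares of Mcm4 and Mcm5 averaged 20.6% and 14.5% in KO libraries and 15.1% and 9.85% in WT. Those of Mcm6 and Mcm7 averaged 12.8% and 19.3% in KO libraries and 16.8% and 23% in WT. None of the 6 shares overlapped between groups. The shares of a library add up to a fixed total, so a rise in some lowers others, and these are not 6 independent results. The share of Mcm7 was lower in KO libraries although its FPKM overlapped between groups. The spread among subunits was narrower in KO libraries, where the highest mean FPKM was 1.6 times the lowest, against 2.55 times in WT. In WT the order ran Mcm3 (54.5 ± 1.77 FPKM), Mcm7 (49.8 ± 2.90), Mcm6 (36.4 ± 1.76), Mcm4 (32.7 ± 0.767), Mcm2 (22.0 ± 0.968) and Mcm5 (21.4 ± 2.11), where the libraries of Mcm3 and Mcm7 overlapped, as did those of Mcm2 and Mcm5. In KO libraries the order ran Mcm4 (51.3 ± 1.43 FPKM), Mcm7 (48.2 ± 2.84), Mcm2 (45.5 ± 1.75), Mcm5 (36.3 ± 0.935), Mcm3 (36.1 ± 1.6) and Mcm6 (32.1 ± 1.04). There Mcm7 overlapped both Mcm4 and Mcm2, and Mcm5 overlapped Mcm3.

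**Figure D2:**
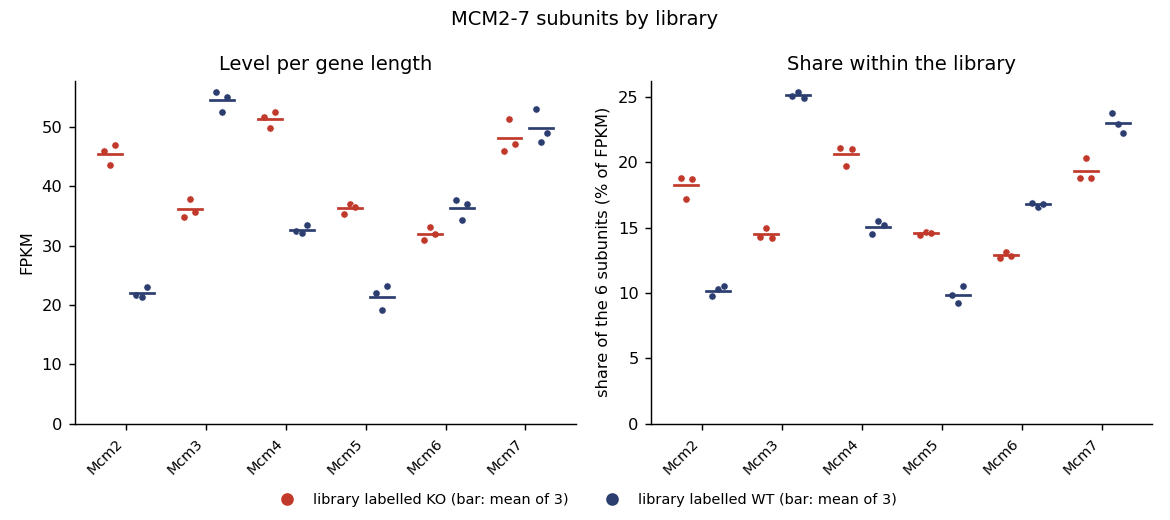
FPKM (left) and share of the summed FPKM of the 6 subunits in percent (right) for Mcm2 to Mcm7 in each library labelled KO (red, left of each pair) and WT (blue); bars are means of 3. The share of Mcm2 is 17.2% to 18.8% in KO libraries and 9.73% to 10.5% in WT, and that of Mcm3 is 14.2% to 15% in KO libraries and 24.9% to 25.4% in WT.

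E2F sites are the element best known from promoters of replication genes. Of the subunits that rose, Mcm5 held a match, Mcm2 did not, and Mcm4 had no promoter window. Both subunits that fell held matches, as did 1 of the 2 windows of Mcm7, which did not pass. The 4 called subunits with a promoter window in RefSeq (build GRCm38.p6, 250 bases before to 50 after the start) are given 5′ to 3′ on the strand of the gene, with letters that match an E2F site (TTTCCCGC, TTTGGCGC, TTTCGCGC or TTTGCCGC, on either strand) in capitals.
Mcm2, chr6:88898731-88899030, minus strand: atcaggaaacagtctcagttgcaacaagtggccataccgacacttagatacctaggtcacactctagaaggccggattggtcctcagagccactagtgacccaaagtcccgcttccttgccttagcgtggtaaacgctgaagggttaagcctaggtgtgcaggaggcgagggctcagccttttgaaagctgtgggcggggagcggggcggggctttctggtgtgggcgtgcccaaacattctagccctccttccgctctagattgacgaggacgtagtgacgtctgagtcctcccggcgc
Mcm5, chr8:75109259-75109558, plus strand: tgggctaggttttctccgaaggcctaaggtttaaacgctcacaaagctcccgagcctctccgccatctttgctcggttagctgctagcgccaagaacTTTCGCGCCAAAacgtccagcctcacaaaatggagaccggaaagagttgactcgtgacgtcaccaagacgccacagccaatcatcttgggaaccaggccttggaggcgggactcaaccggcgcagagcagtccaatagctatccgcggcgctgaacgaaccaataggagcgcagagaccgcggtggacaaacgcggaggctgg
Mcm3, chr1:20820263-20820562, minus strand: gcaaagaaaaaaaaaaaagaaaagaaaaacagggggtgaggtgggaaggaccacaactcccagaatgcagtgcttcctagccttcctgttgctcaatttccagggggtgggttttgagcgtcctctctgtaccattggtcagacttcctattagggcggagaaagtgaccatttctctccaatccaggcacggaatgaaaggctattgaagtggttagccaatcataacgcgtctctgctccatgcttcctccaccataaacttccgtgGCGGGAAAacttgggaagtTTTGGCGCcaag
Mcm6, chr1:128359656-128359955, minus strand: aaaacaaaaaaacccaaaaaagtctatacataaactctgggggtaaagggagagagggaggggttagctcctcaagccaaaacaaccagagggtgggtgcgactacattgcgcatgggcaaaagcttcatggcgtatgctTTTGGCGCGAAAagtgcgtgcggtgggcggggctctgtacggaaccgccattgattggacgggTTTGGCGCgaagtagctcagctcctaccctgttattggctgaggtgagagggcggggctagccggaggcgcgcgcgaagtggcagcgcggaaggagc
Mcm5, which rose, holds 2 overlapping matches. Mcm3 and Mcm6, which fell, hold 2 and 3 matches, of which 2 of those in Mcm6 overlap. Mcm2 had the largest rise of the ring, and these letters are not in its window. In Mcm3 both matches lie after the start, at positions 20 and 39, and in Mcm5 and Mcm6 all lie before it. RefSeq windows were matched for 44 of the 53 genes by gene number; Mcm4, Gmnn, Gins1, Gins2, Gins4, Prim2, Pole, Rfc2 and Ccne2 had none. An E2F match was found in 17 of these 44 genes (38.6%), against 4.75% of all tested genes with a window. By window the match was in 31.5% for the members, against 3.93% for all tested genes and 2.26% of all windows in the table. Among members called higher, called lower and not called it was found in 10 of 29, 3 of 4 and 4 of 11. The CCAAT box (CCAAT on either strand) was in 55.6% of the members' windows and 38.4% of those of all tested genes, and the cell cycle element CHR (TTTGAA or TTCGAA on either strand) in 22.2% and 13.8%, with 19.2% over all windows in the table. Among members called higher, called lower and not called, CHR matches were found in 8 of 29, 0 of 4 and 3 of 11, and CCAAT matches in 20 of 29, 4 of 4 and 3 of 11. By gene, 25% of the members and 16.3% of all tested genes held a CHR match, and 61.4% and 43.9% held a CCAAT match. A match is a run of letters and does not show that a factor binds there.

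The origin recognition complex, which marks origins and opens the loading reaction, held 3 genes that rose and 1 that fell. Orc1, the subunit whose protein comes and goes with the cell cycle, had 24.5, 24.5 and 26.1 CPM in KO libraries, against 14.2, 13.1 and 12.7 CPM in WT (log2 fold change 0.91 ± 0.080; adjusted p = 1.86e-05, edgeR). Orc2 had 43.1, 42.1 and 43.1 CPM in KO libraries and 62.3, 62.9 and 63.1 CPM in WT (−0.55 ± 0.053; adjusted p = 3.17e-05). In both genes the groups were apart, in opposite directions. Orc6 rose by 0.34 ± 0.076 on the log2 scale and Orc4 by 0.18 ± 0.064 (adjusted p = 0.0327), but the call of Orc4 was lost in 8 of the 16 alternatives, among them DESeq2 (adjusted p up to 0.111 with 1 library left out). Orc3 (−0.10 ± 0.079) and Orc5 (−0.17 ± 0.085) did not pass. Without KO replicate 2, Orc5 was called lower at −0.20 (adjusted p = 0.0258). Per length, Orc6 was the most abundant subunit transcript in both groups, at 25.1 ± 1.94 FPKM in KO libraries and 19.7 ± 0.969 FPKM in WT. Orc1 had the lowest mean in WT, at 4.40 ± 0.260 FPKM, against 8.33 ± 0.260 FPKM in KO libraries.

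Of the loading factors, Cdc6, the ATPase that recruits the ring together with CDT1, rose. It had 26.2, 25.7 and 27.6 CPM in KO libraries and 16.3, 16.7 and 17 CPM in WT (0.67 ± 0.072; adjusted p = 5.88e-05, edgeR). Its partner Cdt1 lay at 74.9, 85.5 and 76.0 CPM in KO libraries and 85.7, 83.7 and 84.6 CPM in WT (−0.10 ± 0.066; adjusted p = 0.203). Only KO replicate 2 overlapped WT, and without it Cdt1 was called lower at −0.16 (adjusted p = 0.00105). Gmnn encodes geminin, the inhibitor that binds CDT1 and blocks a second round of licensing. It averaged 12.8 ± 0.531 CPM in KO libraries and 13.1 ± 1.39 CPM in WT (SD, n = 3 each), with a 95% interval of its log2 fold change from −0.26 to 0.20.

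All 6 genes of helicase activation among the 53 rose, but genes tied to this step outside them did not all do so. In the list of other replication genes Mtbp fell by 1.03 ± 0.062, while Donson rose by 0.35 ± 0.099. Ticrr (−0.06 ± 0.083), Topbp1 (0.03 ± 0.072) and Recql4 (0.01 ± 0.097) did not pass. GINS, a complex of 4 subunits that joins CDC45 on the ring, held the largest change of all 53 genes: Gins2 had 19.8, 22.9 and 22.2 CPM in KO libraries, against 6.76, 9.17 and 8.62 CPM in WT, or 1.40 ± 0.12 on the log2 scale (edgeR, adjusted p = 1.66e-05). The other subunits rose by less, Gins3 by 0.86 ± 0.094, Gins4 by 0.57 ± 0.088 and Gins1 by 0.54 ± 0.16 (adjusted p = 0.0197). Gins1 was scarce and uneven, with 10.2, 11.4 and 7.60 CPM in KO libraries and 7.17, 5.88 and 7.12 CPM in WT, and its call was lost without KO replicate 1 or WT replicate 2 (adjusted p up to 0.0802). Per length, Gins2 in WT (7.85 ± 1.22 FPKM) lay below Gins4 (17.9 ± 1.26 FPKM), and in KO libraries it reached 20.9 ± 1.63 FPKM beside 26.8 ± 2.62 FPKM of Gins4. Cdc45 had 40.0, 41.9 and 41.2 CPM in KO libraries and 30.2, 29.8 and 33.5 CPM in WT (0.40 ± 0.069; adjusted p = 0.000999). Mcm10, which triggers the assembled helicase and is no part of the ring, rose by 0.55 ± 0.063, with 53.2 to 53.9 CPM in KO libraries and 35.2 to 39.1 CPM in WT.

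Among the polymerases 5 of 8 genes rose and 1 fell. DNA polymerase alpha and its primase, which lay down each primer, are 4 subunits of a single complex, and they split. Prim1, the catalytic primase subunit, had 37.0, 40.3 and 36.3 CPM in KO libraries and 24.0, 21.5 and 21.9 CPM in WT (0.75 ± 0.076; adjusted p = 4.18e-05, edgeR), and Pola2, the accessory subunit, rose by 0.58 ± 0.063. Pola1, the catalytic subunit, had 45.3, 36.9 and 46.7 CPM in KO libraries and 58.0, 52.1 and 58.0 CPM in WT (−0.38 ± 0.094; adjusted p = 0.00674). KO replicate 2 was its lowest library, and without it the fold change was −0.28, still called. The large primase subunit Prim2 lay at 19.0 ± 0.724 CPM in KO libraries and 19.6 ± 0.329 CPM in WT and did not pass. The subunits of polymerase delta, which makes the lagging strand, also split. Pold2 (0.40 ± 0.099) and Pold1 (0.25 ± 0.074; adjusted p = 0.0154) rose. The call of Pold1 was lost without KO replicate 3 or WT replicate 3 (adjusted p up to 0.0713). In the list of other replication genes, Pold4 was called lower (−0.36 ± 0.084; adjusted p = 0.00515). Pold3, also in that list, did not pass (0.13 ± 0.064; adjusted p = 0.118). For polymerase epsilon of the leading strand, the accessory subunit Pole2 rose by 0.32 ± 0.074. Its catalytic partner Pole had 67.8, 49.0 and 61.2 CPM in KO libraries and 65.3, 64.2 and 63.3 CPM in WT, and its fold change of −0.11 ± 0.11 became 0.01 without KO replicate 2.

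The sliding clamp gene Pcna was the most abundant of the 53 per length, at 112 ± 8.14 FPKM in KO libraries and 80.6 ± 2.66 FPKM in WT. It had 137, 151 and 133 CPM in KO libraries, against 104, 98.0 and 104 CPM in WT (0.46 ± 0.066; adjusted p = 0.000345, edgeR). Changes in its loader RFC, made of 5 subunits, were smaller. Rfc4 (0.37 ± 0.13), Rfc3 (0.30 ± 0.089) and Rfc2 (0.27 ± 0.091) were called higher, with adjusted p of 0.0371, 0.0164 and 0.0290. Rfc4 had 14.8, 20.8 and 15.6 CPM in KO libraries and 13.6, 12.6 and 13.3 CPM in WT, and without KO replicate 2 its fold change of 0.20 did not pass, nor did it pass with any 1 WT replicate left out (adjusted p up to 0.114). Rfc2 also lost its call with any 1 WT replicate left out (adjusted p up to 0.101), and Rfc3 without WT replicate 2 or 3 (adjusted p up to 0.0706). The large subunit Rfc1 averaged 87.1 ± 7.01 CPM in KO libraries and 88.7 ± 4.91 CPM in WT, and Rfc5 24.0 ± 1.30 CPM in KO libraries and 22.5 ± 1.21 CPM in WT, neither of which passed.

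Fen1, the nuclease that trims the flaps of Okazaki fragments, had 58.0, 61.7 and 58.8 CPM in KO libraries and 27.5, 26.9 and 28.6 CPM in WT (log2 fold change 1.10 ± 0.061; adjusted p = 1.13e-06, edgeR). Lig1, the ligase that seals those fragments, had 90.5, 92.4 and 90.4 CPM in KO libraries and 84.8, 79.5 and 84.3 CPM in WT. The groups of Lig1 did not overlap, but the change of 0.14 ± 0.055 missed the threshold (adjusted p = 0.0581), and 4 of the 16 alternatives called it. The single-strand binding complex RPA rose in Rpa1 (0.40 ± 0.061) and Rpa2 (0.54 ± 0.098), while Rpa3 overlapped between groups at 0.19 ± 0.11 (adjusted p = 0.165). Without KO replicate 2 the change of Rpa3 was 0.07 and that of Rpa1 0.36.

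Genes of nucleotide supply had the highest median of any role, 1.02 on the log2 scale over 4 genes. Rrm2, the regulated small subunit of ribonucleotide reductase, had 116, 129.6 and 114 CPM in KO libraries and 50.3, 47.4 and 48.1 CPM in WT (1.30 ± 0.068; adjusted p = 8.38e-07, edgeR). Its large partner Rrm1 had 155, 158 and 154 CPM in KO libraries and 91.2, 87.6 and 98.6 CPM in WT (0.75 ± 0.062; adjusted p = 1.2e-05). Per length the subunits were level in WT, with Rrm2 at 22.2 ± 0.681 FPKM and Rrm1 at 23 ± 1.39 FPKM, whereas KO libraries held 55.2 ± 4.26 FPKM of Rrm2 and 39.0 ± 0.695 FPKM of Rrm1. Tk1, the thymidine kinase of the salvage route, had 56.1, 64.5 and 49.6 CPM in KO libraries and 24.0, 21.4 and 24.2 CPM in WT (1.29 ± 0.10; adjusted p = 1.05e-05). Tyms, the synthase of the de novo route to thymidylate, did not pass, at 38.6 ± 2.68 CPM in KO libraries and 33.9 ± 1.98 CPM in WT (0.19 ± 0.076; adjusted p = 0.0588).

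The kinases that start S phase split between CDK2 and CDC7. Both E-type cyclins, which activate CDK2, rose. Ccne1 had 39.2, 42.0 and 38.5 CPM in KO libraries and 22.7, 22.4 and 20.3 CPM in WT (0.87 ± 0.073; adjusted p = 1.33e-05, edgeR), and Ccne2 rose by 0.74 ± 0.090. Cdk2 itself had 44.2, 48.1 and 48.1 CPM in KO libraries and 33.6, 33.6 and 31.1 CPM in WT (0.51 ± 0.067; adjusted p = 0.000189). The kinase gene Cdc7, whose product phosphorylates the MCM ring, averaged 37.4 ± 2.25 CPM in KO libraries and 39.0 ± 2.27 CPM in WT. Its activating subunit Dbf4 averaged 69.7 ± 2.12 CPM in KO libraries and 68.2 ± 0.501 CPM in WT. Neither passed, and the 95% intervals of their log2 fold changes ran from −0.23 to 0.10 for Cdc7 and from −0.09 to 0.15 for Dbf4, which leave out changes of the size of Ccne1.

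All 4 E2F genes among the 53 rose, but E2F genes outside them did not all do so. E2f1, an activator, had 62.7, 67.2 and 57.7 CPM in KO libraries and 36.0, 32.8 and 35.0 CPM in WT (0.85 ± 0.074; adjusted p = 1.71e-05, edgeR). E2f2, another activator and the least abundant of the 53 per length, averaged 2.80 ± 0.0661 FPKM in KO libraries and 1.83 ± 0.184 FPKM in WT (0.60 ± 0.10; adjusted p = 0.000827). The atypical repressors E2f8 and E2f7 rose by 0.31 ± 0.069 (adjusted p = 0.00427) and 0.33 ± 0.11 (adjusted p = 0.0231). E2f7 was the only gene called although its groups overlapped, with 33.9, 26.9 and 33.3 CPM in KO libraries and 23.4, 23.9 and 27.5 CPM in WT, and the call was lost in 4 of the 6 fits that left out 1 library, those without KO replicate 1 or 3 or WT replicate 1 or 2 (adjusted p up to 0.0917). Of the E2F genes in the list of other replication genes, the activator E2f3 fell, with 47.5, 37.8 and 44.7 CPM in KO libraries and 55.0, 56.9 and 53.1 CPM in WT (−0.35 ± 0.086; adjusted p = 0.00727), while E2f4 and E2f5 rose by 0.32 ± 0.059 and 0.27 ± 0.070.

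**Figure D3:**
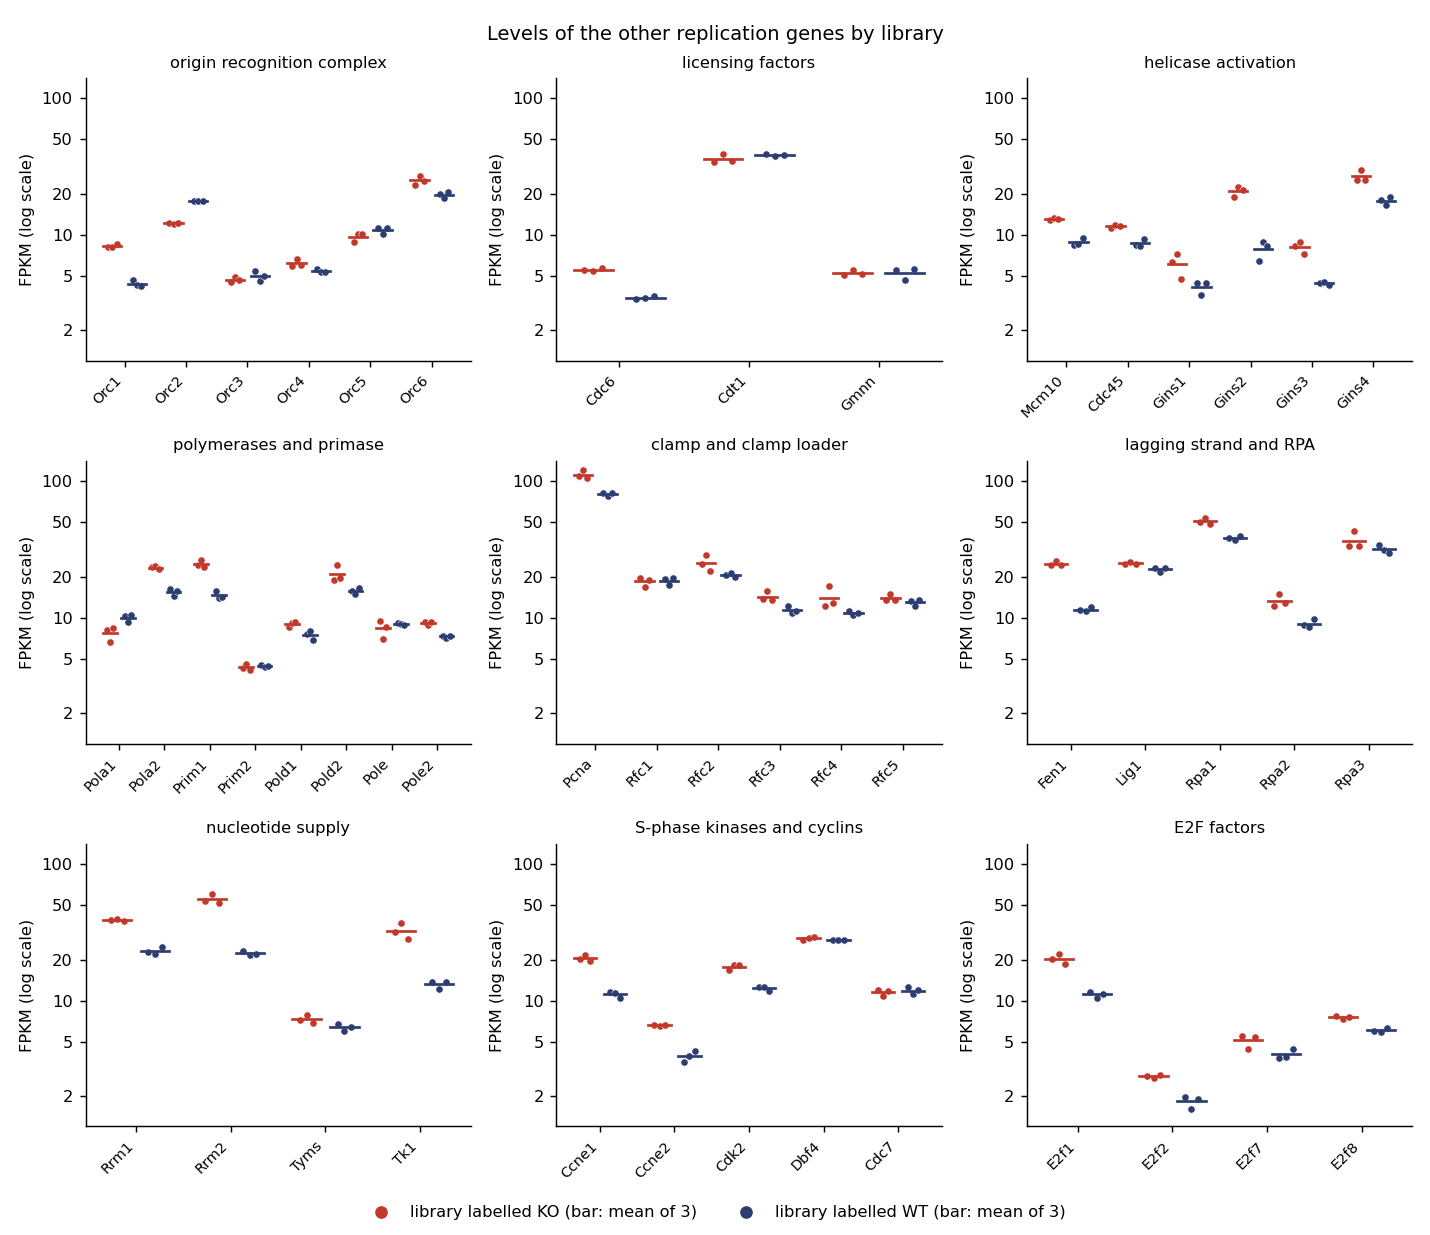
FPKM on a log scale for the 47 members outside the MCM2-7 ring, by role, in each library labelled KO (red, left of each pair) and WT (blue); bars are means of 3. Gins2, Fen1, Rrm2 and Tk1 show the widest gaps upward in KO libraries, Orc2 and Pola1 lie lower in KO libraries, and Prim2, Dbf4 and Gmnn lie level.

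Of the 4 members that fell, 3 are on 1 chromosome. By the RefSeq gene table Mcm3, Mcm6 and Orc2 are on chromosome 1, and Pola1, the remaining member that fell, is on the X chromosome. Prim2, which did not pass, is the only other member on chromosome 1. Of 689 genes tested on that chromosome 71.7% were called lower and 5.66% higher, with a median log2 fold change of −0.49. Taking the 10 tested genes on each side (10 in all for Rfc3), the neighbours of Mcm3 had a median of −0.62, those of Orc2 −0.61, and those of Mcm6 and Prim2 −0.46 each. Mcm3 (−0.60) and Orc2 (−0.55) thus lay at the level of their neighbours, and Mcm6 (−0.19) and Prim2 (−0.04) above it. Pola1 (−0.38) lay below its neighbours, whose median was 0.06. On the other chromosomes 35 of 49 members rose and 1 fell. Over all genes tested, chromosome 1 included, 30.5% were called higher and 29.2% lower.

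Members that rose did so on chromosomes that were higher and on chromosomes that were lower. Chromosome 8 held 6 members (Mcm5, Orc6, Cdt1, Gins2, Gins3 and Gins4), of which 5 rose, and 55.4% of its 652 genes were higher and 11.8% lower (median 0.28). The neighbours of Mcm2, on chromosome 6, had the highest median of any member, 0.50, with 16 of 20 called higher. In contrast Ccne1 (0.87), E2f7 (0.33) and Pold1 (0.25) rose among neighbours with medians of −0.36, −0.38 and −0.45. In all 27 of the 35 members that rose had neighbours with a median above 0, and 8 had neighbours with a median below 0. The change of 47 of the 53 members was above the median of its neighbours, which is a description and was not tested. The same neighbour counts over all genes tested are not given here, so they are not read as particular to the members. Chromosome 5 held the most members, 10 in all, and 2 of them rose, where 16.4% of its genes were higher and 31.7% lower (median −0.08). The part of these shifts along chromosomes in the members' changes was not tested.

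**Figure D4:**
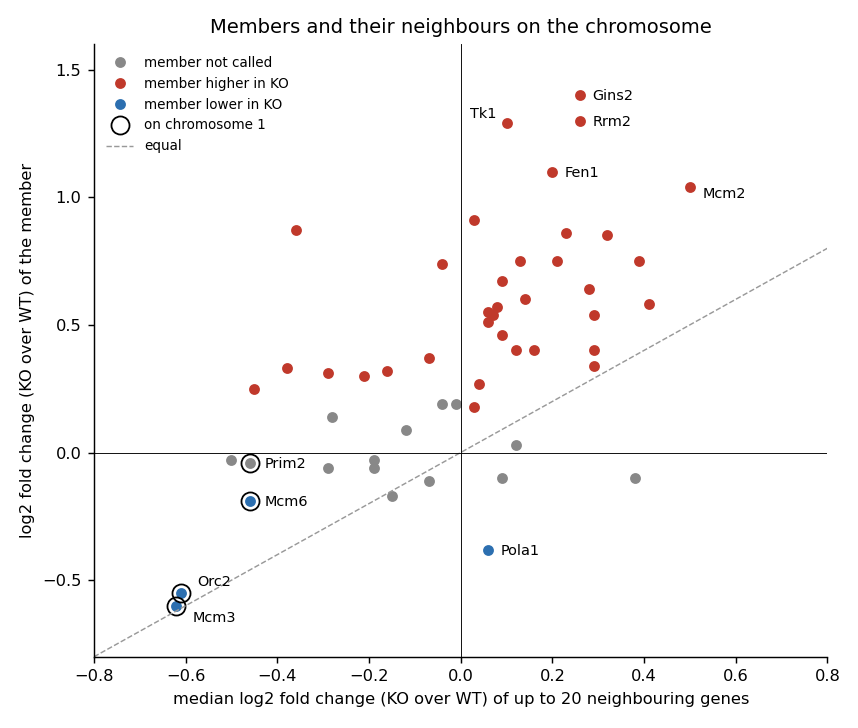
Log2 fold change (labelled KO over WT) of each of the 53 members against the median of its tested neighbours, 10 on each side (10 in all for Rfc3); red, blue and grey mark members called higher, lower and not called, rings mark chromosome 1, and the dashed line marks equal values. Mcm3 and Orc2 sit on the line near −0.6, while 47 members lie above it, with Gins2, Rrm2, Tk1 and Fen1 farthest up.

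The gap between KO replicate 2 and the other KO libraries varied with gene length. All 15 members with a length under 2000 bases, as derived from the counts and FPKM values, were higher in KO replicate 2 than in both KO replicates 1 and 3, by a median of 0.22 on the log2 CPM scale. The largest such gaps were 0.45 for Rfc4, 0.37 for Gins1 and 0.34 for Rpa3. The 14 members of at least 4000 bases had a median gap of 0.02, and 6 of them were lower in KO replicate 2 than in both others. The lowest of these gaps were those of Pole (−0.39), Pola1 (−0.32), E2f7 (−0.32) and Rfc1 (−0.20), while Tyms (0.16), Orc4 (0.14), the longest member, and Orc3 (0.08) were above 0. Over the 53 members the Spearman correlation of this gap with length was −0.698, and over all 11972 tested genes −0.661, while for KO replicate 1 against 3 it was 0.0191 and 0.0508. The log2 fold change of KO over WT, with all libraries, also correlated with length, at −0.291 over the members and −0.188 over all tested genes. With the length trend of each library removed, the members' median log2 fold change was 0.34, against 0.37. These genes share the same libraries, so the correlations are descriptions. Without KO replicate 2, 34 of the 35 members called higher and all 4 called lower were called the same way. Rfc4 was no longer called, Lig1 was called higher, and Mcm7, Orc5 and Cdt1 were called lower. The part of gene length, and of the smaller p-values of that fit, in these changed calls was not tested, and the gap of Lig1 was 0.03.

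**Figure D5:**
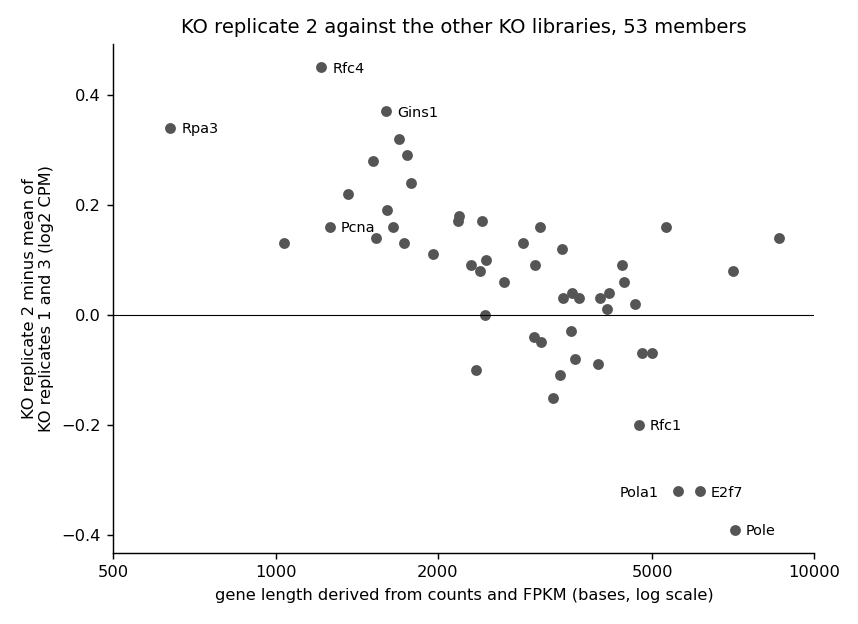
Difference in log2 CPM between KO replicate 2 and the mean of KO replicates 1 and 3 for the 53 members, against gene length derived from the deposited counts and FPKM (log scale). The 15 genes under 2000 bases all lie above 0, up to Rfc4 (0.45), and the 14 of at least 4000 bases lie on both sides of 0, from Pole (−0.39) to Tyms (0.16).

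Other genes of replication and its control also rose more often than they fell. Of 70 listed genes outside the 53, 69 were in the table and 68 were tested. Among them 33 rose (48.5%, where the background is 30.5%) and 11 fell (16.2%, where the background is 29.2%), and the median log2 fold change was 0.15. The largest rises were in Asf1b, a histone chaperone at the fork, Chtf18, of an alternative clamp loader, and Wdhd1, which ties polymerase alpha to the helicase. Asf1b had 33.2, 40.5 and 30.6 CPM in KO libraries and 16.2, 16.6 and 16.3 CPM in WT (1.09 ± 0.11; adjusted p = 3.79e-05, edgeR). Chtf18 rose by 1.02 ± 0.080 and Wdhd1 by 0.96 ± 0.071. The largest falls were in Mtbp, a partner of the origin-firing factor TICRR, with 28.2, 27.3 and 25.7 CPM in KO libraries and 56.1, 55.1 and 54.2 CPM in WT (−1.03 ± 0.062; adjusted p = 2.05e-06). Rrm2b, the p53-inducible counterpart of Rrm2, fell by 0.71 ± 0.11, opposite in direction to Rrm2. Rb1, the retinoblastoma gene whose product restrains E2F, fell by 0.51 ± 0.11, among neighbours on chromosome 14 with a median of −0.74.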

How the data were processed

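Polyadenylated RNA of 6 libraries (1 µg of total RNA each, TruSeq Stranded mRNA kit) was sequenced, per the labels' protocols. The authors deposited raw read counts per gene and FPKM values for the same 16000 genes. The submitters' processing notes name GRCm39 and the tools HTSeq, HISAT2, Trimmomatic, DESeq and Cufflinks. The sources used here do not name their versions, the annotation or the strand setting, so reads of overlapping antisense genes may be included. The deposited FPKM equals the count divided by the library total and 1 length per gene within 8.04e-05%, from which gene lengths were derived. The tables held 0 columns of other samples.

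Counts were filtered with filterByExpr, scaled by TMM and tested with edgeR 4.0.16 (R 4.3.3, quasi-likelihood, KO against WT), with Benjamini-Hochberg adjustment over 11972 genes and a threshold of 0.05. The code was tested on simulated data. Standard errors and 95% intervals follow from each log2 fold change and its F statistic. Per-library CPM uses TMM-scaled totals. Neighbours and promoter windows came from RefSeq tables of GRCm38.p6, matched by NCBI gene number, and their coordinates were not converted. DESeq2 1.42.0, limma 3.58.1 on log2(FPKM + 0.5), other scalings and filters, each library left out, a replicate block and a stricter threshold were tried. All members and the subunits of the ring were to be named, with values by library for the largest rise and fall in each role, and the 3 largest rises and falls of the other replication genes; values of further genes were added after they were seen. The members, lists and rules were chosen with earlier results of these data known. Marker lists covered fibroblast, epithelial, leukocyte, endothelial, muscle and neural cells; the muscle list summed to 0.225 to 28.6 CPM in libraries labelled KO and 0.518 to 0.956 CPM in WT.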

Additional observations from a re-analysis of the deposited data

How the results depend on the processing

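Under the 16 alternatives, 35 members called higher became 28 to 37 and 4 called lower became 3 to 7. Of these alternatives, removal of a gene-length trend was chosen after seeing the data. The shares of all genes called under the alternatives are not given here. The counts in this section, those of the other replication genes included, thus have no background beside them. The highest count of members called lower, 7, came without KO replicate 2 and, again 7, with the length trend of each library removed. Of 39 called members, 31 passed the threshold under every alternative, 28 of them higher and 3 lower (Mcm3, Orc2 and Pola1), and 0 changed sign. The other 8 were Mcm6, Orc4, Gins1, Pold1, Rfc2, Rfc3, Rfc4 and E2f7. Leaving out 1 library at a time gave 29 to 35 members higher, 3 to 7 lower and a median log2 fold change of 0.34 to 0.41, and for the other replication genes 27 to 36 higher and 9 to 15 lower. Signs turned only for members that were not called: Orc3 (0.01), Rfc5 (−0.02) and Dbf4 (−0.04) with the length trend removed, Gmnn without WT replicate 1 (0.01) or 3 (0.02; range over the 6 fits −0.11 to 0.02), Pole without KO replicate 2 (0.01; range −0.22 to 0.01), and Rfc1 without KO replicate 2 (0.04) or WT replicate 3 (0.00; range −0.07 to 0.04). The cause was not tested. The log2 ratios of the shares within the MCM2-7 ring, left out 1 library at a time, ran from 0.81 to 0.88 for Mcm2, −0.82 to −0.78 for Mcm3, 0.42 to 0.48 for Mcm4, 0.52 to 0.61 for Mcm5, −0.4 to −0.38 for Mcm6 and −0.29 to −0.22 for Mcm7. The replicate numbers are not stated to mark shared cultures, and the deviations of same-numbered libraries correlated at −0.0725, −0.0938 and 0.0221. With 3 libraries per group and KO replicate 2 apart from the other KO libraries, these values cannot decide whether same-numbered libraries shared a culture or day. With a replicate block 33 members were higher and 3 lower, with a median of 0.36, and each KO library correlated best with a WT library of another number. The scarcest member in counts was Gins1, at 98 to 210 counts per library.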

Other observations

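The proliferation marker Mki67, outside the lists described, was at 417, 293 and 397 CPM in libraries labelled KO and 233, 239 and 252 CPM in WT (log2 fold change 0.61 ± 0.12; adjusted p = 0.0019, edgeR). Mki67 was chosen after its value was seen. Of the regulators of E2F in the list of other replication genes, the partner gene Tfdp1 rose by 0.56 ± 0.056 and Tfdp2 fell by 0.45 ± 0.074. The pocket protein genes also differed in direction, with Rbl2 higher (0.30 ± 0.071) and Rbl1 lower (−0.32 ± 0.088), beside the fall of Rb1. Cdkn1b, encoding the CDK2 inhibitor p27, fell by 0.39 ± 0.054, with 68.4 ± 2.08 CPM in KO libraries and 89.8 ± 1.15 CPM in WT (SD, n = 3 each). Cdkn1a, the other CDK inhibitor gene in that list, did not pass (−0.09 ± 0.058, edgeR adjusted p = 0.216). The neighbours of Tfdp1 had a median log2 fold change of 0.34 and those of Tfdp2 −0.61. Those of Rbl2, Rbl1 and Cdkn1b had medians of 0.16, 0.21 and 0.07. The regulators named here were chosen after their values were seen.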
